A study of Homo sapiens with 5 samples.

Results

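DNA replication starts when the origin recognition complex (ORC) and the licensing factors CDC6 and CDT1 load the MCM2 to MCM7 helicase onto DNA, while geminin (GMNN) blocks reloading. CDC45, the GINS complex and MCM10 then start the helicase, RPA coats the single strands, primase and the DNA polymerases copy them around the sliding clamp PCNA, and FEN1 and LIG1 finish the lagging strand. MYC binds gene promoters widely, above all at the E-box, and HSF1 binds heat shock elements and is best known for driving chaperone genes. The 44 genes of this machinery were taken as a fixed list, out of 20033 protein-coding genes of GENCODE 44 on chromosomes 1 to 22, X and Y, and all of them were found in the annotation. The list holds MCM2 to MCM10, ORC1 to ORC6, CDC6, CDT1, GMNN, CDC45, GINS1 to GINS4, PCNA, RFC1 to RFC5, POLA1, POLA2, PRIM1, PRIM2, POLD1, POLD2, POLD3, POLE, POLE2, POLE3, FEN1, LIG1 and RPA1 to RPA3. The question was how often MYC and HSF1 occupied their promoters in the same ovarian cancer cells.

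The data were CUT&RUN libraries, in which a nuclease tethered by an antibody releases the DNA under a bound protein for sequencing. All came from OVCAR8, an established human high-grade serous ovarian carcinoma line that carries amplified MYC and HSF1, grown without treatment and fixed briefly with formaldehyde. There were 2 MYC libraries, 2 HSF1 libraries and 1 IgG library, which served as the background for every list, and no other line or condition was compared. The labels do not say whether replicates came from separate cultures, so the spread between them may be technical. The 4 antibody libraries held 8265647 to 10084407 fragments after filtering. The MYC lists held 25623 and 13278 peaks and the HSF1 lists 6421 and 4459 on these chromosomes. MYC replicate 1, the list with the most peaks, came from the smallest library. A promoter peak is a peak with any base within 1 kb of any annotated start site of the gene. Fold enrichment is the height of the peak over the IgG background at its summit, and where a gene had several promoter peaks in a list the highest was used. Coordinates are those of hg38.

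MYC peaks lay at nearly all replication promoters and HSF1 peaks at few. A MYC peak was called at 42 of the 44 genes in replicate 1 (95.5%) and at 34 in replicate 2 (77.3%), against 55.3% and 41.2% of all protein-coding genes. In both MYC lists together 34 genes had a peak (77.3%), against 40.1% of all protein-coding genes. HSF1 peaks were called at 6 genes in replicate 1 (13.6%) and at 3 in replicate 2 (6.82%), against 8.58% and 6.85% of all protein-coding genes. PRIM2 and CDC6 had an HSF1 peak in both lists, which is 4.55% of the 44 against 3.49% of all protein-coding genes. PRIM2 alone had peaks of both factors in all 4 lists (2.27%), against 3.05% of all protein-coding genes. The MYC lists averaged 38.0 genes (SD 5.66, n = 2 lists) and the HSF1 lists 4.5 (SD 2.12, n = 2 lists). The difference of 33.5 genes exceeded the spread between replicates, and the counts of the 2 factors did not overlap. Over all protein-coding genes the counts were also apart, 11080 and 8245 for MYC against 1718 and 1372 for HSF1. For the listed genes a two-sided exact permutation test of 2 lists against 2 gave p = 0.333, the smallest value it can give. The authors called MYC at a p-value of 1e-10 and HSF1 at 1e-04. With HSF1 also held to 1e-10, PRIM2 and CDC6 were still called in both lists (4.55%, against 1.27% of all protein-coding genes), although at CDC6 the replicate 2 peak that passed was a different one, inside the gene.

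**Figure D1:**
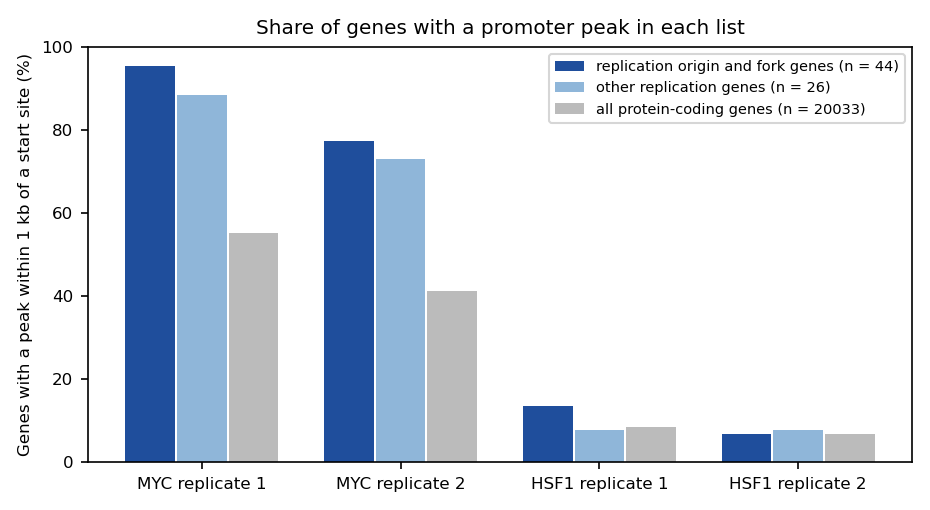
Bars give the percentage of genes with a peak within 1 kb of a start site in each of the 4 lists, for the 44 replication origin and fork genes, 26 other replication genes and all 20033 protein-coding genes. In the MYC lists the 44 genes stand at 95.5% and 77.3% over 55.3% and 41.2% of all genes, and in the HSF1 lists at 13.6% and 6.82% beside 8.58% and 6.85%.

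Replication genes outside the list were counted by the same rule. Of 26 such genes, among them the origin kinase CDC7 and its partner DBF4, the fork protection genes TIMELESS, TIPIN and CLSPN, and the topoisomerases TOP1 and TOP2A, 23 had a MYC peak in replicate 1 (88.5%), 19 in replicate 2 (73.1%) and 18 in both (69.2%). HSF1 peaks were called at 2 of these 26 genes in each list (7.69%, against 8.58% and 6.85% of all protein-coding genes). At 1 of the 26, TICRR, a factor that helps start origins, a peak was called in both (3.85%, against 3.49%). Its fold enrichments were 3.91 and 4.69. The TICRR peaks of the HSF1 lists did not overlap. The fold enrichment of MYC at TIMELESS, 49.4 in replicate 1 and 22.4 in replicate 2, was above that of every one of the 44 genes in replicate 1.

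The genes on the list have more annotated start sites than most, a median of 8 (2 to 31) against 5 over all protein-coding genes, which gives a peak more chances to be counted. Among genes with 1 to 3 start sites, 8 of 8 on the list had a MYC peak in both lists, against 22.7% of all protein-coding genes. Among those with 4 to 8 the count was 8 of 15 (53.3%, against 43.1%), with 9 to 15 it was 13 of 16 (81.2%, against 53.8%), and with 16 or more it was 5 of 5 (against 62.0%). When each gene was given only its canonical start site, the count stayed at 34 of 44 and the share over all protein-coding genes was 36.5%.

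The height of the MYC peaks, unlike their number, was close to that of other genes. Over the genes with a promoter peak, the median fold enrichment was 14.8 in replicate 1 (42 genes) and 12.0 in replicate 2 (34 genes), against 14.6 and 11.7 over all protein-coding genes with a peak. For the 34 genes with a peak in both lists the mean of the 2 lists had a median of 14.6, ranging from 8.21 at GINS4 to 28.7 at ORC6, against 14.4 over the 8024 protein-coding genes with a peak in both.

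**Figure D2:**
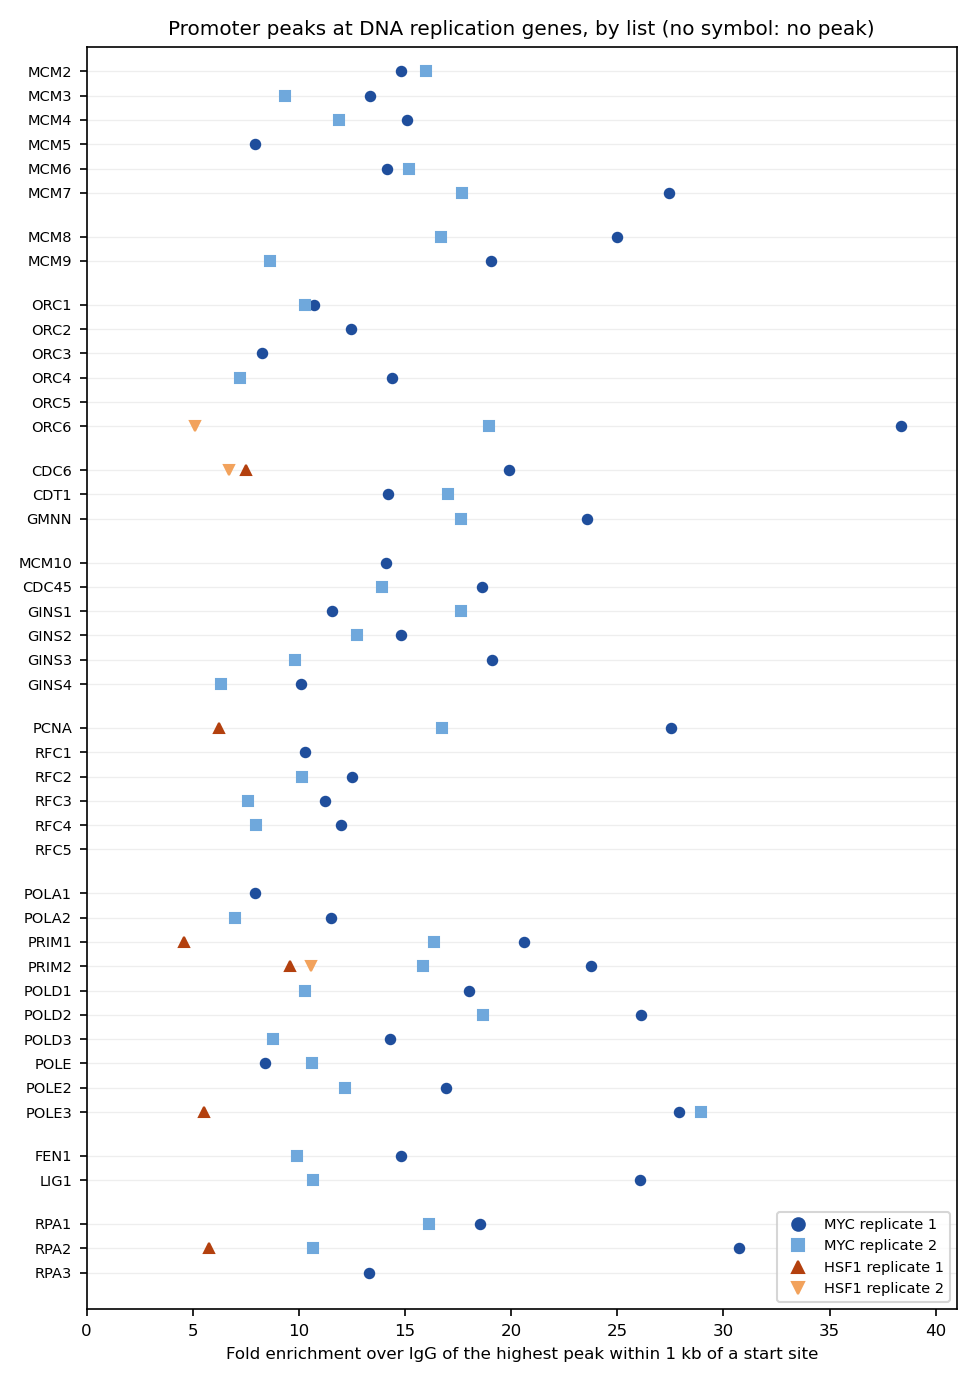
Each row is a gene, grouped by role from the helicase at the top to RPA at the bottom, and each symbol is the fold enrichment over IgG of its highest promoter peak in 1 list. MYC symbols fill nearly every row, between 6.31 and 38.4, and HSF1 symbols appear in 7 rows, between 4.58 and 10.6.

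In the origin recognition complex, which marks where replication may begin, 5 of 6 genes had a MYC peak in replicate 1 and 3 of 6 in replicate 2. ORC6, its smallest subunit, had the highest mean MYC fold enrichment on the whole list, with 38.4 in replicate 1 and 19.0 in replicate 2, under peaks of 1604 and 1558 bp. It also carried an HSF1 peak in replicate 2 alone, at a fold enrichment of 5.12, whose summit lay 13 bp from that of MYC replicate 1. ORC1 and ORC4, subunits of the ATP-binding core, had a MYC peak in both lists, with fold enrichments from 7.24 to 14.4. ORC2 (12.4) and ORC3 (8.28) had a MYC peak in replicate 1 alone. ORC5 had no promoter peak in any list, and the nearest MYC peak lay 217849 bp from its canonical start site.

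The licensing factors all had a MYC peak in replicate 1. CDC6, the loader that joins ORC on the DNA, had a MYC peak of 19.9 in replicate 1 (−log10 p-value of 42.0) and none in replicate 2, and that value was above the median of the genes called in both. GMNN, which encodes the inhibitor geminin, had 23.5 and 17.6, and CDT1, the protein geminin holds back, had 14.2 and 17.0. The height at CDT1 is uncertain, because both of its MYC peaks hold sequence with near-identical copies elsewhere in the genome (at least 95% identity over at least 150 bp). Of the 85 highest peaks at the listed genes these were the only 2 with such copies.

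All 6 genes of the MCM2 to MCM7 helicase had a MYC peak in replicate 1, with fold enrichments from 7.93 to 27.4, and 5 of 6 had one in replicate 2, from 9.36 to 17.7. MCM7 was the highest in both, with 27.4 and 17.7. MCM5 was the lowest in replicate 1, at 7.93 over 181 bp with a pileup of 12, and had no MYC peak in replicate 2. None of the 6 had an HSF1 peak in either list, and only 11.9% of all protein-coding genes had one. MCM8 and MCM9, a separate pair of helicase subunits that act in recombination repair, had a MYC peak in both lists. MCM8 had 25 and 16.7. At MCM9 the highest peak of replicate 1 (19.1) lay at an internal start site shared with ASF1A, a histone chaperone, and at the canonical start the values were 11.7 and 8.64.

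Of the 6 genes that turn the loaded helicase on, all had a MYC peak in replicate 1 and all but MCM10 had one in replicate 2. MCM10, which helps the helicases of an origin part, had 14.1 in replicate 1. CDC45 and the 4 GINS genes, whose products make up the active helicase together with MCM2 to MCM7, ranged from 10.1 to 19.1 in replicate 1 and from 6.31 to 17.6 in replicate 2, and GINS4 was the lowest in both. GINS1 had a MYC peak at each of 2 start sites in both lists. At the upstream site, which lies beside ABHD12, the values were 11.6 and 6.63, and at the canonical start they were 10.1 and 17.6, so the 2 lists placed the higher peak at different starts.

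PCNA, the sliding clamp, was bound by MYC at both of its annotated start sites in both lists. At the canonical start the fold enrichments were 27.5 and 16.8, and at the other, several kb upstream, they were 26.5 and 12.8. The upstream peak overlapped an HSF1 peak of replicate 1 (6.25). Of the clamp loader genes, RFC2, RFC3 and RFC4 had a MYC peak in both lists, from 7.62 to 12.5. RFC1, the large subunit, had 10.3 in replicate 1 alone, and RFC5 had no promoter peak in any list, with the nearest MYC peak 18339 bp from its canonical start.

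All 10 genes of primase and the replicative polymerases had a MYC peak in replicate 1 and 9 had one in replicate 2. POLE3, a histone-fold subunit of the leading strand polymerase, had the highest value on the list in replicate 2 and was nearly equal in the lists, with 27.9 and 28.9. POLD2, a subunit of the lagging strand polymerase, had 26.1 and 18.7. The primase genes were both in the upper part of the list, PRIM1 with 20.6 and 16.4 and PRIM2 with 23.8 and 15.9. POLA1, the catalytic subunit of the priming polymerase, had 7.94 in replicate 1 and no peak in replicate 2.

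FEN1, the flap nuclease, had MYC fold enrichments of 14.8 and 9.91 and LIG1, the ligase that seals Okazaki fragments, had 26.1 and 10.7. RPA1, the large subunit of the single-strand binding protein, had 18.5 and 16.1. RPA2 had 30.7 and 10.7, the widest gap between the MYC lists among the genes called in both. RPA3 had 13.3 in replicate 1 alone, and that peak lay at an internal start site 78087 bp downstream of the canonical one, within 1 kb of a start site of UMAD1. A lower RPA3 peak of 9.0 in the same list began 728 bp from the canonical start.

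The 2 MYC lists ranked the genes alike only in part. Over the 34 genes called in both, Pearson's r of log2 fold enrichment was 0.60 and Spearman's rho was 0.62, as over all 8024 protein-coding genes called in both (r = 0.59). These are correlations across genes that share the same 2 libraries and 1 IgG background, so genes are not independent replicates. Replicate 1 was the higher at 28 of the 34 genes, with a median ratio of 1.45 (0.66 to 2.88), and the same ratio over all protein-coding genes was 1.36. The 6 genes higher in replicate 2 were MCM2, MCM6, CDT1, GINS1, POLE and POLE3. At 32 of the 34 genes the highest peaks of the 2 lists overlapped, with summits a median of 57.5 bp apart (5 to 411), and MCM9 and GINS1 were the exceptions.

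**Figure D3:**
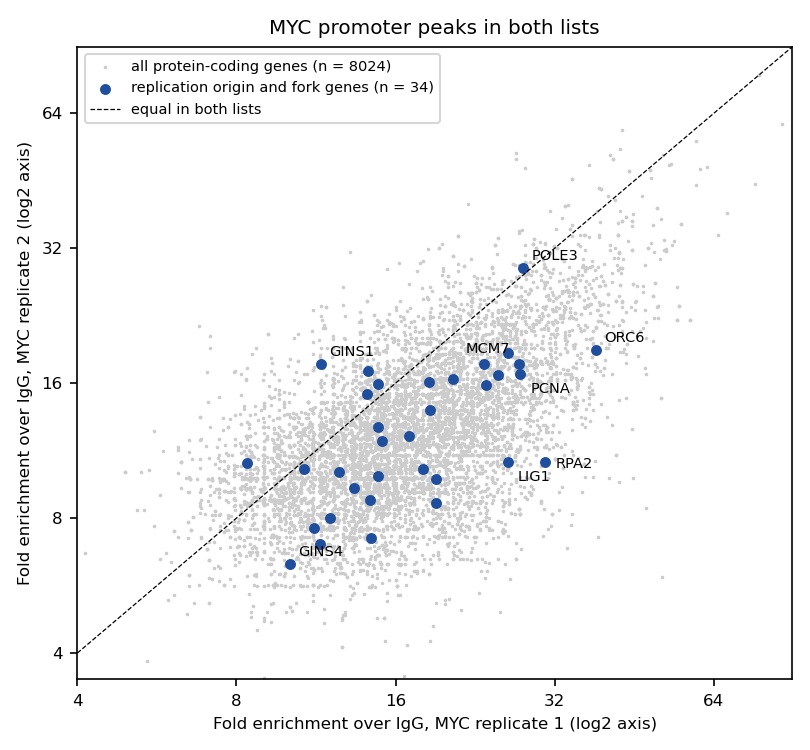
Each point is a gene with a MYC promoter peak in both lists, with the fold enrichment over IgG of replicate 1 on the x axis and of replicate 2 on the y axis, both on log2 axes, and the dashed line marks equal values. The 34 blue replication genes lie inside the grey cloud of 8024 protein-coding genes, and 28 of them fall below the line.

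The 8 genes called by MYC in replicate 1 alone were MCM5, MCM10, ORC2, ORC3, CDC6, RFC1, POLA1 and RPA3 (18.2% of the list, against 15.3% of all protein-coding genes), and no gene on the list was called in replicate 2 alone. Their fold enrichment in replicate 1 had a median of 11.4 (7.93 to 19.9), against 16 (8.38 to 38.4) for the 34 called in both. The ranges overlapped, and a gene without a call in replicate 2 was below the threshold there, which does not show that MYC was absent.

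HSF1 peaks were found at 7 of the 44 genes in either list (15.9%, against 11.9% of all protein-coding genes). All 7 also had a MYC promoter peak in at least 1 list, as did 95.8% of the 2391 protein-coding genes with an HSF1 peak in either list. PRIM2 carried the highest. Its fold enrichment was 9.57 in HSF1 replicate 1 and 10.6 in replicate 2, at a site less than 1 kb upstream of the canonical start and downstream of an alternative start, and both MYC lists had a peak over the same site (20.2 and 12.7). The 4 summits fell within 42 bp of each other. The lower MYC value lay above the higher HSF1 value, by less than the 2 MYC lists differed, and antibodies need not enrich alike. The bases around the 4 summits are shown because all 4 lists met there, and they hold no E-box, CCAAT box or E2F site, motifs described below:

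PRIM2, chr6:57316809-57316901, plus strand: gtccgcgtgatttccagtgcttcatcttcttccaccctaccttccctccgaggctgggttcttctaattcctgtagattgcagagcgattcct

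A second PRIM2 site, several kb farther upstream, had the higher MYC peaks (23.8 and 15.9) and an HSF1 peak in replicate 1 alone (6.97). The E-box beside it is printed below.

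CDC6 carried an HSF1 peak at its promoter in both lists, with fold enrichments of 7.50 and 5.86 and summits 1 bp apart. The MYC replicate 1 summit lay 17 and 18 bp from them, and MYC replicate 2 had no peak. Within 100 bp of the HSF1 replicate 1 summit lay 3 CCAAT boxes, in a window where 34.9% of promoter peaks in that list held at least 1. The summits lay upstream of the start. The stretch around them holds 1 of these boxes, read on the other strand as ATTGG and set in capitals:

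CDC6 promoter, chr17:40287699-40287767, plus strand: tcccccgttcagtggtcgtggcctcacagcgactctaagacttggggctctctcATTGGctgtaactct

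HSF1 replicate 2 had a further peak of 6.71 in intron 2 of CDC6, which no peak of the other 3 lists overlapped.

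The other 5 genes had HSF1 peaks in 1 list only, with fold enrichments of 6.25 at PCNA, 5.77 at RPA2, 5.55 at POLE3 and 4.58 at PRIM1 in replicate 1 and 5.12 at ORC6 in replicate 2. Each of these 5 HSF1 peaks overlapped a MYC peak in both MYC lists, against 67.7% of the 1692 protein-coding genes with an HSF1 peak in 1 list only. Over all protein-coding genes with an HSF1 promoter peak the median was 5.00 in replicate 1 and 5.19 in replicate 2. The 10 listed genes with the highest mean MYC fold enrichment were ORC6, POLE3, MCM7, POLD2, PCNA, MCM8, RPA2, GMNN, PRIM2 and PRIM1. How often genes with high MYC peaks carry an HSF1 peak was not computed over all protein-coding genes. The overlap of these 10 with the HSF1 genes is therefore not read as a result.

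Beyond 1 kb, HSF1 or MYC peaks inside the listed genes were found at POLA2 and POLD3 only. The highest lay in POLA2, which encodes the regulatory subunit of the priming polymerase, where HSF1 had 7.60 in replicate 1 and 16.4 in replicate 2 with summits 65280048 and 65280046 on chromosome 11. No MYC peak overlapped it, and this replicate 2 value was above every HSF1 promoter peak on the list. A heat shock element lay 88 bp from the replicate 2 summit and 18172 bp downstream of the canonical start. The stretch printed below overlaps 1 annotated exon, whose gene was not recorded. Such an element lay within 100 bp of the summit at 6.51% and 5.97% of all peaks in the 2 HSF1 lists. The POLA2 element is in capitals:

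POLA2, chr11:65280124-65280156, plus strand: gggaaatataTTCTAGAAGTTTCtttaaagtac

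A second POLA2 site, 1437 to 1837 bp from an internal start, had peaks in all 4 lists, with MYC at 11.2 and 11.7 and HSF1 at 4.12 and 4.52.

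MYC summits lay close to the start sites. The highest MYC peak had its summit within 250 bp of a start site of the gene at 38 of 42 genes in replicate 1 (90.5%) and at 28 of 34 in replicate 2 (82.4%), against 75.1% and 70.9% over all protein-coding genes with a peak. For HSF1 it was 5 of 6 genes (83.3%) and 1 of 3 (33.3%), against 66.1% and 59.1%. The nearest annotated start site was used, and the listed genes have a median of 8 against 5 over all protein-coding genes. More start sites give a summit more chances to lie near a start, and the effect on these shares was not tested. Set against the canonical transcript, 24 of the 42 MYC summits of replicate 1 lay upstream, 10 in introns, 5 in coding sequence and 3 in the 5′ UTR, and of the 34 in replicate 2 13 lay upstream, 10 in introns, 7 in coding sequence and 4 in the 5′ UTR.

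**Figure D4:**
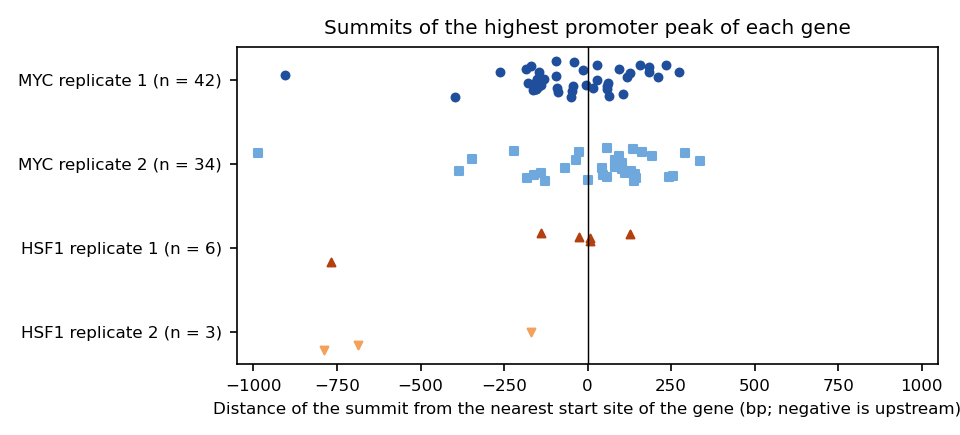
Each symbol is the summit of a gene's highest promoter peak, at its distance in bp from the nearest start site of that gene, with upstream to the left. MYC summits crowd within 250 bp of the start site, 38 of 42 in replicate 1 and 28 of 34 in replicate 2, and the HSF1 summits farthest out are those of PRIM2 and the CDC6 intron.

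Many of these promoters are shared with a neighbouring gene. In MYC replicate 1 the peak also lay within 1 kb of the start of another protein-coding gene at 19 of 42 genes (45.2%, against 29.4% over all protein-coding genes with a peak), and in replicate 2 at 15 of 34 (44.1%, against 31.7%). The pairs included MCM4 with PRKDC, the kinase of DNA end joining, ORC6 with VPS35, a retromer subunit, MCM7 with AP4M1, CDC45 with UFD1, MCM8 with TRMT6, a tRNA methyltransferase subunit, FEN1 with TMEM258, and RPA1 with SMYD4. For HSF1 the peak was shared in this way at 3 of 6 genes in replicate 1 (50%, against 31.8%) and at 1 of 3 in replicate 2 (33.3%, against 30.1%). These were PCNA with CDS2, PRIM1 with HSD17B6 and POLE3 with C9orf43 in replicate 1, and ORC6 with VPS35 in replicate 2. A peak between such a pair cannot be assigned to one of the genes.

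E-boxes were few within 100 bp of the MYC summits of these genes, but not within 250 bp, and the differences from other promoter peaks were not tested. The E-box CACGTG, which reads the same on both strands, lay within 100 bp of the highest MYC summit at 1 of 42 genes in replicate 1 (2.38%) and at 0 of 34 in replicate 2, against 7.51% and 6.5% of all promoter peaks in the same lists. Within 250 bp of the summit the counts were 9 of 42 (21.4%) and 11 of 34 (32.4%), against 20.1% and 21.8% of promoter peaks, with MCM2, ORC4, GMNN, RFC4, PRIM2, POLD2, POLE3, FEN1 and RPA1 in both lists. The E-boxes of the 6 genes that held one from 250 bases before to 50 after their RefSeq start, and that of PRIM2, are given with the bases around them to show where they lie, with the E-box in capitals:

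MCM2, chr3:127598400-127598405: tttggtgggtCACGTGaaccactttt

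MCM7, chr7:100101417-100101422: tggcgccggtCACGTGgggggcgacg

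MCM8, chr20:5950524-5950529: gcaccgccccCACGTGttgcacgccg

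GMNN, chr6:24774947-24774952: gtcagttggtCACGTGgttgttcgga

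FEN1, chr11:61792881-61792886: gcgagcaggtCACGTGacgggagcgc

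RPA1, chr17:1829907-1829912: atgggtgggtCACGTGggccgcgcct

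PRIM2, chr6:57313952-57313957: gggtgaatgcCACGTGgggcagtctg

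Coordinates are those of the E-box, and each sequence is written on the strand of its gene. The PRIM2 element was the one within 100 bp of a summit, 56 bp from that of MYC replicate 1 and 136 bp from that of replicate 2. The other six lay 114 to 376 bp from the MYC summits.

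E2F sites were frequent in the same promoters. E2F factors are the transcription factors best known for switching on replication genes at the start of S phase. The site was searched as TTTCCCGC, TTTCGCGC, TTTGCCGC and TTTGGCGC on both strands, and a search was added of RefSeq promoters, 250 bases before to 50 after the start, after the peaks had been seen. RefSeq promoters were matched for 38 of the 44 genes. An E2F match stood in 18 of the 38 (47.4%), against 4.49% of 15345 protein-coding promoters and 3 of 20 of the other replication genes (15%). It stood in 4 of 4 promoters of the MCM2 to MCM7 group, 2 of 3 licensing genes, 3 of 5 firing genes, 4 of 9 polymerase genes, 2 of 6 clamp and loader genes and 1 of 6 ORC genes. CCAAT boxes, searched on both strands, stood in 22 of 38 (57.9%, against 36.6%), E-boxes in 6 of 38 (15.8%, against 8.89%) and the heat shock element GAANNTTCNNGAA, searched on both strands, in 0 of 38 (against 0.358%). GC content was alike, with medians of 64.2% and 63.0%, and the ratio of observed to expected CpG was 0.965 against 0.767. These are descriptions of letters, without a test.

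**Figure D5:**
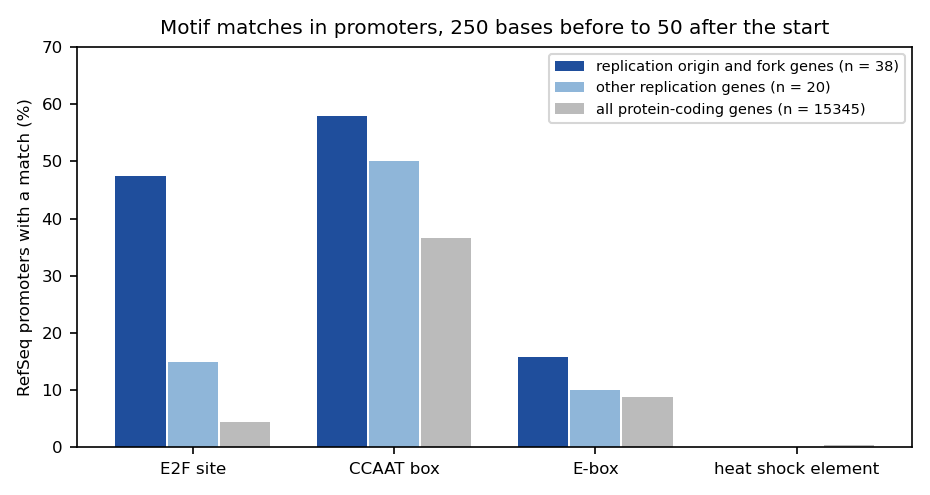
Bars give the percentage of RefSeq promoters with at least 1 match to each motif, for 38 replication origin and fork genes, 20 other replication genes and 15345 protein-coding genes. The widest gap is at the E2F site, 47.4% against 4.49%, and no replication promoter holds the heat shock element.

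The densest case was MCM6, whose promoter holds 4 matches as 2 pairs that overlap on opposite strands, with a CCAAT box between them. The stretch is shown with the E2F matches and the CCAAT box (ATTGG on this strand) in capitals:

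MCM6, chr2:135876512-135876605, minus strand: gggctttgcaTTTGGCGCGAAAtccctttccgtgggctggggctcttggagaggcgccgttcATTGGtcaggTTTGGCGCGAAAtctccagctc

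It lay inside the MYC peak of replicate 1 but outside that of replicate 2, and the matches lay 224 bp or more from both summits. Further E2F matches are given in capitals, each with the coordinates of the match and on the strand of its gene:

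MCM3, chr6:52284909-52284916: ggatggtacgTTTCCCGCcaccgcgggg

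MCM5, chr22:35399941-35399948: cagccagaagTTTCGCGCcaaattgttc

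CDC6, chr17:40287886-40287893: gccattcggaTTTGGCGCgagcgcggct

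PCNA, chr20:5126674-5126681: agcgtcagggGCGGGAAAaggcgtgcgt

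LIG1, chr19:48170451-48170458: cttcacccctTTTCCCGCcctcctccca

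The LIG1 site lay 2 bp from the summit of MYC replicate 1 and 104 bp from that of replicate 2. The MCM3 site lay 16 bp from the replicate 1 summit but 428 bp from that of replicate 2, outside the peak, and the MCM5 site lay 10 bp from the replicate 1 summit, with no peak in replicate 2. The PCNA site lay 24 bp from the HSF1 replicate 1 summit at the upstream start. Within 100 bp of the highest MYC summit an E2F match was found at 8 of 42 genes in replicate 1 (19.0%, against 3.02% of promoter peaks) and at 2 of 34 in replicate 2 (5.88%, against 2.63%). CCAAT boxes were found there at 15 of 42 (35.7%, against 22.5%) and at 7 of 34 (20.6%, against 14.8%). MYC was called in both lists at 15 of the 18 genes with an E2F match in the RefSeq promoter and at 15 of the 20 without one, a difference that was not tested.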

How the data were processed

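OVCAR8 cells were profiled by CUT&RUN for MYC (n = 2), HSF1 (n = 2) and IgG (n = 1). Per the labels and the file headers, the authors used bcl2fastq 2.20.0, Bowtie2, SAMtools, bedtools and MACS 2.2.9.1, aligned to GRCh38/hg38 and called peaks on each library separately against 1 IgG library. The deposited values were, for each peak, the pileup (a signal at the summit after MACS2 scaling), the −log10 p-value and the fold enrichment (peak over local background as a ratio, each with 1 added). The headers call the control IgG replicate 2, while the labels list 1 IgG control. The −log10 q-value column was not used.

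Start sites of all transcripts came from GENCODE 44, and a peak counted for a gene when any base lay within 1 kb. No read counts were used here, so no count model was fitted, and a missing peak is a peak not called at that depth and threshold. Motifs were searched within 100 bp of summits in hg38 and in RefSeq promoters, all 38 of which were identical to hg38. Copies were searched with BLAST 2.17.0 over 401 bp. Tools were Python 3.11.15, pandas 2.3.3, numpy 2.4.6, scipy 1.17.1, pysam 0.24.0 and matplotlib 3.10.9. Peak assignment and motif search were tested on simulated data and recovered every planted case. Values in every list are given for genes with an HSF1 peak, for the 10 with the highest mean MYC fold enrichment and for those without a MYC peak in both lists, and the rest were grouped by role. Examples from the other replication genes and the peaks beyond 1 kb were chosen after their values were seen. The genes, lists and motifs were chosen with earlier results of these data known. Heat shock element matches at the HSF1 promoter peaks of the listed genes are not reported here.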

Additional observations from a re-analysis of the deposited data

How the results depend on the processing

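The count of genes with a MYC promoter peak in both lists ranged from 24 to 42 over the alternatives (34 as reported). The 24 (54.5%) came with all lists at 1e-20, against 28.3% of all protein-coding genes. The 42 (95.5%) came with a peak in either replicate (against 56.4%) and without MYC replicate 2 (against 55.3%). The difference between MYC and HSF1 lists ranged from 29.5 to 37.5 genes, with an exact permutation p of 0.333 each time. With the replicate number as a block (paired replicates) the difference was 33.5 and the two-sided exact p was 0.5, the smallest that 2 pairs can give. The labels do not say that a shared number marks a shared culture. Without a replicate in turn, the median MYC fold enrichment ranged from 12.0 to 14.8 and the E-box count from 0 to 1. The HSF1 count was 3 without HSF1 replicate 1 (6.82%, against 6.85% of all protein-coding genes). It was 6 without HSF1 replicate 2 (13.6%, against 8.58%). The count for both factors ranged from 1 to 5 (5 without HSF1 replicate 2, 2 without HSF1 replicate 1 or MYC replicate 2). Its share over all protein-coding genes was not computed for these settings. The HSF1 count, 2 as reported, was 0 when a peak had to overlap the start site (against 1.35% of all protein-coding genes). It was 1 within 500 bp (2.27%, against 3.09%), 0 at 1e-20 (against 0.589%) and 7 with a peak in either replicate (15.9%, against 11.9%). The count for both factors, 1 as reported, was 0, 0, 0 and 7 under the same settings and 2 within 5 kb, where POLA2 was added. Over all protein-coding genes the shares were 1.06% overlapping the start site, 2.73% within 500 bp, 0.439% at 1e-20 and 4.48% within 5 kb. With a peak in either replicate, 2290 of 20033 protein-coding genes had both factors. The median MYC fold enrichment, 14.6 as reported, was 16.8 at 1e-20, where weak peaks were removed. The E-box count in both lists, 0 within 100 bp, was 1 in either replicate, 9 within 250 bp and 8 over the whole peak. For these E-box counts the share over all protein-coding genes was not computed. With 2 lists for each factor the exact permutation test cannot pass 0.05, and the cause of the difference between the MYC lists was not tested.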

Other observations

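The local background behind the fold enrichments was compared as well. Both MYC lists were called against the same IgG library, so the values are not separate measurements of IgG. The background implied by pileup and fold enrichment at the highest MYC peaks had a median of 1.04 in replicate 1 and 1.63 in replicate 2 over the 42 and 34 listed genes with a peak, against 0.960 and 1.35 over all protein-coding genes with a peak. The promoter peaks at these genes were wider than the average, with a median width of 750 bp in replicate 1 and 658 bp in replicate 2, against 644 and 563 bp over all protein-coding genes with a peak. None of these differences was tested.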
